A study of Mus musculus with 35 samples.

Results

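The comparison described here sets testes of Akt1 homozygous mutant mice exposed to 6-N-propylthiouracil (PTU) against testes of Akt1 wild type mice exposed to PTU, both at postnatal day 15. Its 6 arrays, 3 of each genotype, were chosen by their titles and are part of 35 arrays in the series and of 18 at day 15. RNA came from whole testis of male C57BL6 mice, and the design text gives the genotypes as Akt1-/- and Akt1+/+ and counts 1 mouse for each array. For comparison, 3 further groups of day 15 arrays, with 3 each, are used: Akt1+/- (heterozygous) testes with PTU, and Akt1-/- and Akt1+/+ testes without it. Akt1+/- testes without PTU, also at day 15, are not compared, but their arrays enter the fit on all 18 arrays and its estimate of the spread. PTU-exposed Akt1-/- and Akt1+/+ testes at postnatal day 25 are set beside these on 5 arrays, 2 of them Akt1-/-. How the mutant allele was made, which part of Akt1 it lacks, and the dose, route and days of PTU are not given in the sources used here. Apart from that text no label ties an array to its own animal, so each p-value measures only the spread between these arrays.

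Akt1 encodes a serine/threonine kinase that acts downstream of phosphatidylinositol 3-kinase (PI3K) and passes on growth factor signals for survival, growth and metabolism. PTU blocks thyroid hormone synthesis, and in young rodents a lack of thyroid hormone delays the maturation of Sertoli cells, the somatic cells that nurse the germ cells. Around this age the tight junctions between Sertoli cells close to form the blood-testis barrier, and the first wave of germ cells passes through meiosis. The series title names the barrier and Akt1 after PTU exposure as its subject.

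Values are log2 intensities, the brightest probe set of each gene standing for it, and a difference of 1 log2 is 2-fold. Of 19938 genes, 16710 passed the filter on dim genes and were tested with limma. The arrays of day 15 fall into sets by 1685 bright probe sets without a gene symbol: the 3 exposed wild type arrays and homozygous array 1 lie in set 1, and homozygous arrays 2 and 3 lie in set 2. All 3 unexposed wild type arrays and unexposed homozygous arrays 1 and 2 lie in set 1 as well, so a genotype difference is partly also a difference between sets, and its part in the results was not tested beyond the values given with the set as a block. Spink8, an epididymal secretory gene, read 8.74 in homozygous array 2 and 5.09 and 4.83 in the other 2 exposed homozygous arrays, against 4.81, 5.03 and 4.86 in exposed wild type arrays. It also read 9.38 and 7.91 in unexposed wild type arrays 2 and 3. The mean of the epididymis list was 5.42 to 5.66 in exposed homozygous and 5.28 to 5.38 in exposed wild type arrays, and that of the fat list 5.93 to 6.17 and 5.71 to 5.87. Adam7, another epididymal gene, read 4.78, 5.5 and 4.93 in exposed homozygous and 4.62, 4.61 and 4.82 in exposed wild type arrays, and 6.98 in unexposed wild type array 2, so that it was highest on the 2 arrays where Spink8 was highest. Lcn8, also of the epididymis, read at most 5.85 and Adipoq, of fat, at most 5.0 on these 6 arrays, where the filter on dim genes lies at 5.56. The part of other tissue in the results was not tested. Testis markers were high in both genotypes: the Sertoli gene Clu read 13.24 to 13.36 in exposed homozygous and 13.36 to 13.39 in exposed wild type testes, and the germ cell gene Dazl 12.18 to 12.50 and 12.41 to 12.49.

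Akt1 itself read 9.74, 9.01 and 9.18 in the exposed homozygous testes, against 9.92, 9.95 and 10.09 in the exposed wild type testes. Every homozygous array lay below every wild type array, and array 1 lay closest. The difference was -0.68 ± 0.22 log2 (SE) with an adjusted p of 0.101, and 0.0731 with the sample number as a block. In exposed heterozygous testes Akt1 read 8.83, 9.79 and 9.67, all below the wild type range, with array 1 also below the homozygous range. Without PTU it read 9.40, 9.23 and 9.04 in homozygous and 9.34, 9.48 and 9.71 in wild type testes. The probe set therefore still gave a bright signal in every homozygous array, and since the deleted part is unknown this does not check the labels. Akt2, the closest relative of Akt1, read 10.96 to 11.07 in exposed homozygous and 10.93 to 11.02 in exposed wild type testes (0.05 ± 0.08).

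**Figure D1:**
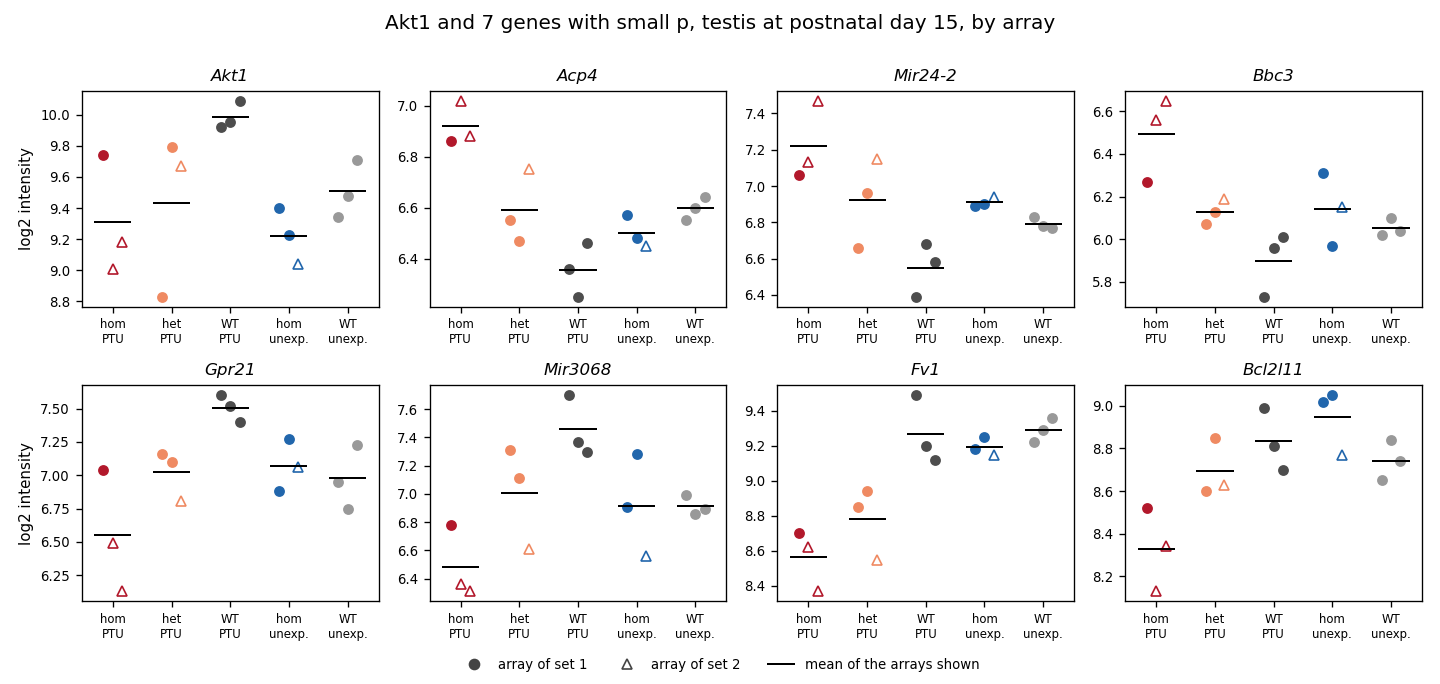
Log2 intensity on each day 15 array (vertical axis) of Akt1 and 7 genes with small p, by group (horizontal axis), with the group mean as a bar. Filled circles are arrays of set 1 and open triangles arrays of set 2. For each of the 8 genes the 3 exposed homozygous arrays do not overlap the 3 exposed wild type arrays, and homozygous array 1 is the homozygous array nearest to wild type for each of them.

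Across all genes, 0 of 16710 (0%) passed an adjusted p of 0.05 in limma, the smallest being 0.0735. At an unadjusted p under 0.05 there were 4266 genes (25.5%), of which 2119 were higher and 2147 lower in homozygous testes. The homozygous and wild type arrays did not overlap for 4220 genes (25.3%), 1983 of them higher (11.9%) and 2237 lower (13.4%). After quantile normalization that split was 2760 higher and 1090 lower, so the balance of directions depends on the scaling. Arrays with the same sample number deviated together in both genotypes (correlations 0.557, 0.141 and 0.423), but so did homozygous array 3 and wild type array 2 (0.377). No label says that the sample number pairs arrays. With that number as a block, 750 genes passed (4.49%), 442 higher (2.65%) and 308 lower (1.84%) in homozygous testes. Their median size was 0.44 log2, only 5 exceeded 1 log2, and 665 of the 750 had arrays that did not overlap. With both the sample number and array set as blocks 0 passed (smallest adjusted p 0.128). The number that passed depended on which arrays were weighed and how. Without homozygous array 1, which leaves the homozygous arrays of set 2 against wild type arrays of set 1, 3308 genes passed. With array weights, which gave homozygous array 1 a weight of 0.31, 1187 passed. With array set as a block 0 passed, and within set 1, where homozygous array 1 stands alone, 0 passed. The plot of passing genes by setting gives these counts side by side.

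**Figure D2:**
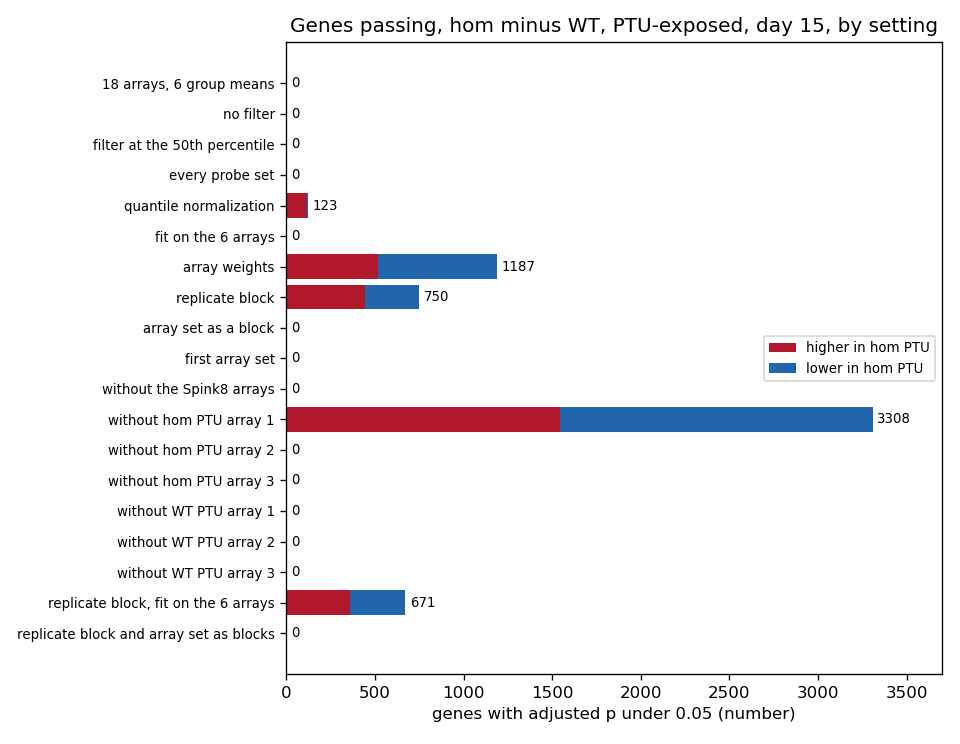
Number of genes with an adjusted p under 0.05 (horizontal axis) for exposed homozygous minus exposed wild type testes under each setting (vertical axis), split into genes higher and lower in homozygous testes. The settings with a count above 0 are quantile normalization (123), array weights (1187), the replicate block (750, or 671 on the 6 arrays alone) and the fit without homozygous array 1 (3308).

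The naming rule gave 32 genes with the largest differences or the smallest p. In the main fit, on all day 15 arrays with no block or array weights, none of them passed (adjusted p 0.0735 to 0.103). Also without a block, 18 of the 32 passed after quantile normalization and 30 with array weights. With the sample number as a block 31 of the 32 passed, without homozygous array 1 also 31, and all kept their sign with array set as a block, where their median size was 0.59 log2 in place of 0.76 and adjusted p 0.232 to 0.323. With both blocks none passed (adjusted p 0.128 to 0.307). These genes were chosen by the same contrast, so the values below describe them and are no further evidence. Genes said below to pass "with the block" did so with the sample number as a block, and not in the main fit.

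Among the genes that were higher in exposed homozygous testes, Acp4, a testis-expressed acid phosphatase, had the smallest p. It read 6.86, 7.02 and 6.88 in exposed homozygous testes, against 6.36, 6.25 and 6.46 in exposed wild type testes. All homozygous arrays were above all wild type arrays, and array 1 was not set apart from arrays 2 and 3. The difference was 0.56 ± 0.09 log2 (adjusted p = 0.0735, 0.0305 with the block). In exposed heterozygous testes it read 6.55, 6.47 and 6.75. Without PTU it read 6.57, 6.48 and 6.45 in homozygous and 6.55, 6.60 and 6.64 in wild type testes, groups whose ranges overlap. The difference with PTU minus that without was 0.65 ± 0.12 (adjusted p = 0.00249).

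Htr1b, a serotonin receptor, read 6.59, 6.54 and 6.50 in exposed homozygous testes, against 6.03, 6.07 and 6.03 in exposed wild type testes (0.50 ± 0.09, 0.0305 with the block). Pdx1, a homeobox factor best known from pancreas, read 5.89, 6.13 and 6.04, against 5.49, 5.44 and 5.59 in wild type (0.51 ± 0.09, 0.0305 with the block). Both are dim, not far above the filter, and for both all homozygous arrays lay above all wild type arrays. Smim38, a small membrane protein, read 6.52, 6.76 and 7.01 in exposed homozygous testes, against 6.16, 6.19 and 6.07 in exposed wild type testes (0.62 ± 0.11, 0.0319 with the block). Matn1, a cartilage matrix protein, read 5.63, 5.49 and 5.68, against 4.85, 5.16 and 4.92 in wild type. It was tested only because exposed homozygous arrays 1 and 3 lay above the filter at 5.56, so it had to differ, and its values are given without a test. Krt18 is a keratin used as a marker of immature Sertoli cells. It read 6.53, 7.66 and 7.08 in exposed homozygous testes, against 5.90, 6.44 and 6.36 in exposed wild type testes (0.86 ± 0.24, 0.0398 with the block). Here homozygous array 1 lay just above the highest wild type array. Krt18 was highest on array 2 of the exposed homozygous and of the unexposed wild type testes (7.66 and 6.95). These arrays also had the highest Spink8 of their groups (8.74 and 9.38). On exposed homozygous array 3, where Spink8 was low (4.83), Krt18 read 7.08. Its difference was 0.57 without the 3 arrays with Spink8 above 7, and 0.29 within set 1, where homozygous array 1 stands alone. Which cells gave its signal was not tested. Mrps16, a mitochondrial ribosomal protein, read 9.83, 10.52 and 10.56, against 9.48, 9.66 and 9.61 in wild type, so that most of its mean difference of 0.72 ± 0.16 came from arrays 2 and 3. Rprm, an inhibitor of the cell cycle at G2 (0.67 ± 0.14), and Rprl2, an RNase P RNA-like gene (0.87 ± 0.22), were also higher on every homozygous array. Both passed with the block (adjusted p 0.0356 and 0.0305). Slitrk1, a neuronal membrane protein, read 5.47, 5.58 and 5.91 in exposed homozygous testes, against 4.85 to 5.05 in exposed wild type testes. It lay above the filter at 5.56 only on exposed homozygous and heterozygous arrays 2 and 3, so its values are given without a test.

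Hairpin genes of microRNAs, the short RNAs that pair with messenger RNAs through their seed, stood at both ends of the list. The probe sets read the hairpin gene, not its arms. Mir24-2 and Mir23a are transcribed as 1 cluster with Mir27a, spanning 404 bases. Mir23a was added after its value was seen, because it neighbours Mir24-2. The hairpins lie at chr8:84208518-84208592 (Mir23a), chr8:84208672-84208758 (Mir27a) and chr8:84208815-84208921 (Mir24-2) on the plus strand of GRCm38.p6. Mir3068 lies at chr12:87437679-87437757 and Mir465 at chrX:66839052-66839125, both on the minus strand. The mature sequences are shown, from RefSeq (GRCm38.p6), because the results name hairpins, from which either arm may be used. Capitals mark the seed, bases 2 to 8.
mmu-miR-23a-5p: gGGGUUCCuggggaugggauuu
mmu-miR-23a-3p: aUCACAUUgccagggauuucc
mmu-miR-27a-5p: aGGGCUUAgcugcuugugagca
mmu-miR-27a-3p: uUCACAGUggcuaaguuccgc
mmu-miR-24-2-5p: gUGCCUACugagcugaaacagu
mmu-miR-24-3p: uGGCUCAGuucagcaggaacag
mmu-miR-3068-5p: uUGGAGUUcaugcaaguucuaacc
mmu-miR-3068-3p: gGUGAAUUgcaguacuccaaca
mmu-miR-465a-5p: uAUUUAGAauggcacugauguga
mmu-miR-465a-3p: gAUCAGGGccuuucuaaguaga
No seed is shared among these 10 sequences. Mir465 belongs to a cluster of near-identical copies on chromosome X, whose signals a probe set can mix.

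Mir24-2 read 7.06, 7.13 and 7.47 in exposed homozygous testes, against 6.39, 6.68 and 6.58 in exposed wild type testes (0.67 ± 0.13, adjusted p = 0.0735, 0.0332 with the block). Mir23a read 6.47, 6.56 and 6.56, against 5.79, 6.10 and 6.05 in wild type (0.55 ± 0.10, 0.0305 with the block). Both hairpins were higher on every homozygous array, array 1 included. Mir27a, which lies between them, read 7.15, 7.16 and 7.33 in exposed homozygous testes, against 6.97, 7.24 and 7.05 in wild type, and these arrays overlapped (0.13 ± 0.10, adjusted p = 0.422). Mir328, another hairpin gene on chromosome 8, read 8.33, 8.82 and 8.73, against 7.74, 8.14 and 7.95 in wild type (0.68 ± 0.18, 0.0356 with the block). Of 165 microRNA genes tested, 52 were higher without overlap (31.5%) and 13 lower (7.88%). Among the dimmest of 5 brightness classes of all genes, 26.1% were higher and 1.8% lower.

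Mir3068 and Mir465 were lower. Mir3068 read 6.78, 6.36 and 6.31 in exposed homozygous testes, against 7.70, 7.37 and 7.30 in exposed wild type testes (-0.97 ± 0.19, adjusted p = 0.0735, 0.0305 with the block). All homozygous arrays lay well below the lowest wild type array. Mir465 read 5.74, 4.62 and 4.27, against 6.31, 5.88 and 5.79 in wild type (-1.12 ± 0.28, 0.0356 with the block), with homozygous array 1 just below the wild type range. Gdap10, which lies on chromosome 12 as Mir3068 does, read 8.27, 7.71 and 7.66, against 8.89, 8.69 and 8.62 in wild type (-0.86 ± 0.17, 0.0305 with the block). Without PTU, Gdap10 read 8.43, 8.78 and 8.30 in homozygous and 8.31, 8.48 and 8.34 in wild type testes, so that the 2 differences themselves differed by -0.98 ± 0.25 (adjusted p = 0.0124).

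The lowest protein-coding genes included Gpr21, an orphan receptor coupled to G proteins. It read 7.04, 6.49 and 6.13 in exposed homozygous testes, against 7.60, 7.52 and 7.40 in exposed wild type testes (-0.95 ± 0.18, adjusted p = 0.0735, 0.0334 with the block). Without PTU its groups overlapped, at 6.88, 7.27 and 7.06 in homozygous and 6.95, 6.75 and 7.23 in wild type testes, and the interaction was -1.05 ± 0.25 (adjusted p = 0.0108). Fv1, a restriction gene of retroviral origin, read 8.70, 8.62 and 8.37, against 9.49, 9.20 and 9.12 in wild type (-0.71 ± 0.12, 0.0305 with the block). Its homozygous array 1 lay with arrays 2 and 3. Cdc73, the parafibromin subunit of the PAF1 elongation complex, was bright and lower throughout, at 11.26, 10.86 and 10.86, against 11.57, 11.50 and 11.42 in wild type (-0.50 ± 0.11, 0.0305 with the block). Slc25a26, the mitochondrial carrier of S-adenosylmethionine, differed by -0.48 ± 0.09, and Zfy1, a zinc finger gene of the Y chromosome with a near-identical copy, by -0.95 ± 0.26 (0.0305 and 0.0485 with the block). For Zfy1 homozygous array 1 read 8.07 and arrays 2 and 3 read 6.94 and 6.91, against wild type values of 8.18 to 8.33, so that array 1 lay close to wild type. Bex4, an X-linked gene of the brain-expressed family, read 8.84, 8.36 and 8.72, against 9.54, 9.39 and 9.47 in wild type (-0.83 ± 0.22, 0.0357 with the block). Snord58b, a small nucleolar RNA gene, had the largest negative difference among genes without overlap and with a p under 0.01 (-1.14 ± 0.32, 0.0363 with the block). It read 5.07, 4.50 and 4.78 in exposed homozygous testes, all under the filter at 5.56, against 5.92, 5.79 and 6.05 in exposed wild type testes.

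Differences ran with brightness. Genes were split into 5 equal classes by their mean level. In the dimmest class 871 of 3342 genes were higher without overlap (26.1%) and 60 lower (1.8%), while in the brightest class 77 were higher (2.3%) and 885 lower (26.5%). The interquartile range of the gene values was 2.62 to 2.76 log2 on the exposed homozygous arrays and 2.84 to 2.97 on the exposed wild type arrays. After quantile normalization of all probe sets the median difference was 0.17 in the dimmest and -0.06 in the brightest class, against 0.17 and -0.15 before. The part of this spread of intensities in any single difference was not tested.

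Genes of the tight junctions, which seal the blood-testis barrier, differed in both directions and by small amounts. Of 26 listed genes 22 were tested. Of these, 3 were higher and 5 lower without overlap, beside 11.9% and 13.4% of all genes, and the median difference was -0.06 (-0.01 over all tested genes). Cldn3, a claudin made in Sertoli cells when the barrier forms, read 7.26, 7.54 and 7.54 in exposed homozygous testes, against 6.82, 6.96 and 7.13 in exposed wild type testes. All 3 homozygous arrays were above the wild type range. The difference was 0.48 ± 0.14 (adjusted p = 0.0867, 0.0351 with the block), and 0.34 with array set as a block (adjusted p = 0.305). Crb3, a polarity protein at the tight junction, read 7.07, 6.80 and 7.08, against 6.50, 6.48 and 6.60 in wild type (0.46 ± 0.10, adjusted p = 0.0735, 0.0341 with the block). Its difference was the same with array set as a block (0.46).

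Tjp1 (ZO-1), the scaffold that ties claudins and occludin to actin, read 10.86, 10.70 and 10.52 in exposed homozygous testes, against 11.02, 11.05 and 11.01 in exposed wild type testes (-0.33 ± 0.08, adjusted p = 0.0783, 0.0422 with the block). Ocln, occludin, read 9.18, 8.66 and 9.13, against 9.34, 9.40 and 9.40 in wild type (-0.39 ± 0.14, adjusted p = 0.121, 0.0825 with the block). Both were lower on every homozygous array, by 1.26-fold and 1.31-fold on average. Cldn11, the main claudin of Sertoli cells, gave overlapping values of 10.93, 10.61 and 10.78 in exposed homozygous and 11.04, 10.76 and 10.84 in exposed wild type testes (-0.10 ± 0.12, adjusted p = 0.599). Among genes of the adherens junctions and ectoplasmic specialization, 1 of 26 was higher and 7 lower without overlap, beside 11.9% and 13.4% of all genes. In the 2 brightest of 5 brightness classes, 2.75% and 2.3% of genes were higher and 20.4% and 26.5% lower. None of the 26 passed with the block. The 7 lower genes include Fyn, a Src family kinase of that junction, at 10.50, 10.44 and 10.41, against 10.78, 10.67 and 10.72 in wild type (-0.27 ± 0.09, adjusted p = 0.105). Cdh2, N-cadherin, overlapped between genotypes (-0.27 ± 0.11, adjusted p = 0.154). Of 11 connexin and pannexin genes, 3 were higher and 1 lower without overlap, beside 11.9% and 13.4% of all genes. With the block 1 was higher, beside 2.65% of all genes, and 0 lower. That gene, Gjd3 (0.42 ± 0.11, 0.0422 with the block), read 8.07, 8.38 and 8.50 in exposed homozygous testes, against 7.73, 7.99 and 7.98 in wild type. Gja1, the connexin that Sertoli cells use most, gave 11.32, 10.93 and 11.49, against 11.30, 11.42 and 11.35 in wild type (-0.11 ± 0.13), a difference that turns to 0.03 with array set as a block.

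**Figure D3:**
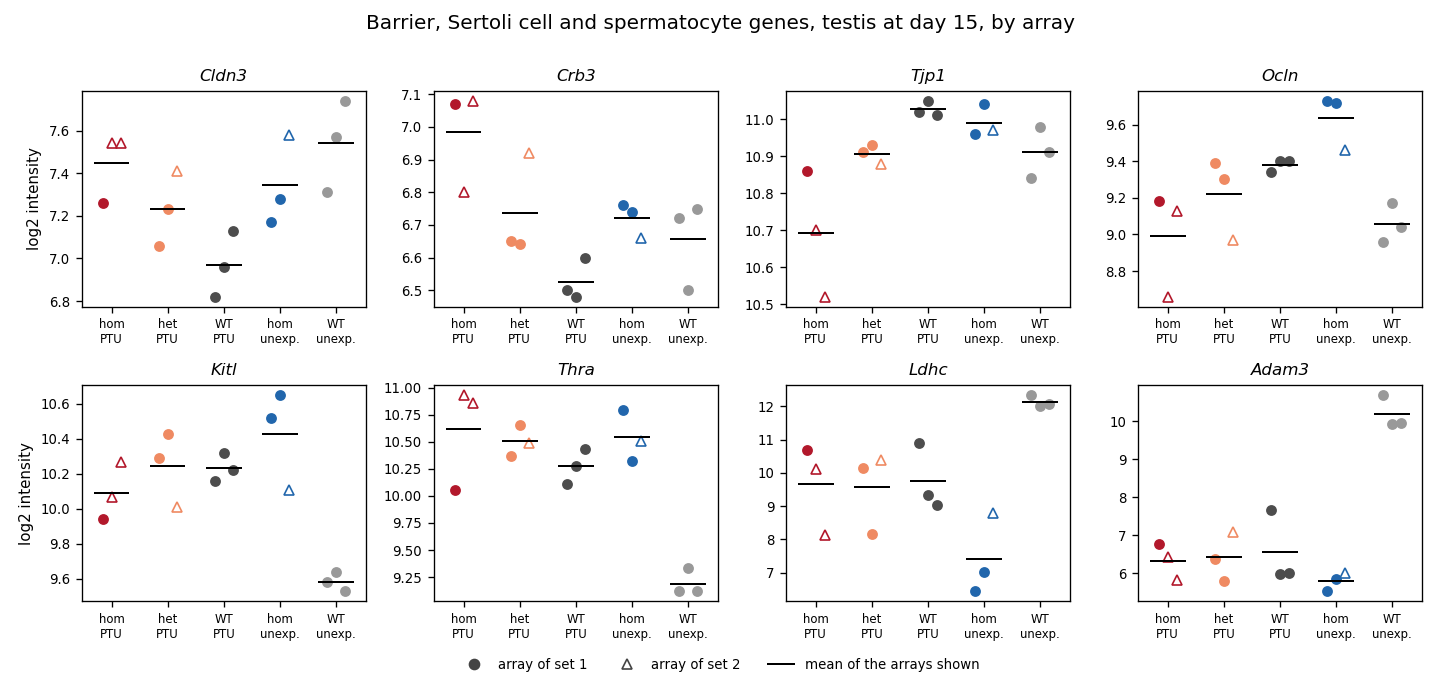
Log2 intensity on each day 15 array (vertical axis) of 4 barrier genes (upper panels) and of 2 Sertoli cell and 2 spermatocyte genes (lower panels), by group (horizontal axis), with the group mean as a bar. Circles are arrays of set 1 and triangles arrays of set 2. Cldn3 and Crb3 are higher and Tjp1 and Ocln lower on every exposed homozygous than on every exposed wild type array, and the 4 genes of the lower panels overlap between those groups.

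In unexposed testes these barrier genes showed other differences. Ocln read 9.73, 9.72 and 9.46 in unexposed homozygous testes, against 8.96, 9.17 and 9.04 in unexposed wild type testes, so it was higher there (0.58 ± 0.14, adjusted p = 0.00473). The difference with PTU minus that without was -0.96 ± 0.20 (adjusted p = 0.00362), and it passed with each of 12 arrays left out in turn (adjusted p up to 0.0144). Fyn was likewise higher without PTU (0.34 ± 0.09), with an interaction of -0.61 ± 0.13 (adjusted p = 0.00418, at most 0.0171 with an array left out). Of the 22 tight junction genes 8 had a negative and 1 a positive interaction past the threshold, beside 8.13% and 8.23% of all genes. The 8 became 3 without unexposed wild type array 1, 4 without exposed wild type array 2, and 5 without unexposed homozygous array 1 or 2 or without unexposed wild type array 3. Without the 3 arrays with Spink8 above 7 they became 2, and 0 were positive. Cldn3 had a positive interaction (0.67 ± 0.19, adjusted p = 0.0255) and Tjp1 a negative one (-0.41 ± 0.12, adjusted p = 0.0279). These were less stable. Cldn3 did not pass without exposed homozygous array 2, exposed wild type array 1 or 2, unexposed homozygous array 1 or 2, or unexposed wild type array 3 (adjusted p up to 0.0755). Tjp1 did not pass without exposed homozygous array 3, exposed wild type array 2 or 3, unexposed homozygous array 2, or unexposed wild type array 1 or 3 (up to 0.0815). Gja1 (-0.59 ± 0.18, adjusted p = 0.033) did not pass without exposed homozygous array 2, exposed wild type array 2 or 3, unexposed homozygous array 1 or 2, or unexposed wild type array 1 or 3 (up to 0.0844). Without the 3 arrays with Spink8 above 7 the adjusted p was 0.335 for Cldn3, 0.0985 for Tjp1 and 0.138 for Gja1.

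Survival and death genes of the Bcl2 family include targets of the Akt and FoxO pathway. Akt holds FoxO factors out of the nucleus, and both Bcl2l11 (Bim) and Bbc3 (Puma) are known FoxO targets that promote cell death. Bcl2l11 was lower, at 8.52, 8.13 and 8.34 in exposed homozygous testes, against 8.99, 8.81 and 8.70 in exposed wild type testes (-0.51 ± 0.11, adjusted p = 0.0735, 0.0356 with the block). Bbc3 was higher, at 6.27, 6.56 and 6.65, against 5.73, 5.96 and 6.01 in wild type (0.59 ± 0.12, adjusted p = 0.0735, 0.0334 with the block). Neither gene's homozygous arrays reached the wild type range. Mcl1, which protects cells from death, read 11.17, 11.09 and 11.02, against 11.43, 11.44 and 11.31 in wild type (-0.30 ± 0.09, 0.0422 with the block). Bad, a direct substrate of Akt that promotes death, read 7.76, 7.79 and 7.59, against 7.49, 7.32 and 7.56 in wild type (0.25 ± 0.10, adjusted p = 0.138, 0.0974 with the block). Of the 20 genes of this family that were tested, 2 were higher and 6 lower without overlap, and 1 was higher and 2 lower with the block. Over all genes the shares were 11.9% and 13.4% without overlap, and 2.65% and 1.84% with the block, so the counts of higher genes were near the shares of all genes.

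Bad was lower in homozygous testes without PTU (-0.33 ± 0.10, adjusted p = 0.0176), at 7.72, 7.53 and 7.47 in homozygous and 8.0, 7.74 and 7.98 in wild type testes, and its interaction was 0.58 ± 0.14 (adjusted p = 0.00954, at most 0.0339 with an array left out). Bcl2l11 read 9.02, 9.05 and 8.77 without PTU in homozygous and 8.65, 8.84 and 8.74 in wild type testes, and these arrays overlapped (0.20 ± 0.11, adjusted p = 0.204). Its interaction was -0.71 ± 0.16 (adjusted p = 0.00758, at most 0.027 with an array left out). Foxo1, the FoxO factor of spermatogonia, read 9.35, 9.29 and 9.32 in exposed homozygous testes, against 9.56, 9.62 and 9.58 in exposed wild type testes (-0.27 ± 0.10, adjusted p = 0.122). In unexposed mice it was higher in homozygous testes, at 9.78, 9.71 and 9.43, against 9.23, 9.22 and 9.23 in wild type (0.41 ± 0.10, adjusted p = 0.00394). Its interaction was -0.68 ± 0.14 (adjusted p = 0.00337, at most 0.013 with an array left out). Without the 3 arrays with Spink8 above 7 the adjusted p of Foxo1 was 0.0592 and that of Bcl2l11 0.0545.

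The core of the PI3K and Akt pathway, Akt1 included, has 27 tested genes. Of these, 8 were lower and 1 higher without overlap, beside 13.4% and 11.9% of all genes. The list averaged 9.07 log2 in exposed homozygous and 9.18 in exposed wild type testes. Among all genes with a mean of 8.64 to 9.71, 20.4% were lower and 2.75% higher. None of the 27 passed in the main fit or with the block on all day 15 arrays, and the median difference was -0.13. With array weights 2 passed as lower and 0 as higher. Without homozygous array 1, 4 passed as lower and 2 as higher. Pik3cb, a catalytic subunit of PI3K, read 9.35, 9.10 and 9.08 in exposed homozygous testes, against 9.34, 9.59 and 9.52 in wild type (-0.31 ± 0.09, adjusted p = 0.0962). Gsk3b, the glycogen synthase kinase that Akt inhibits, read 9.96, 9.90 and 9.88, against 10.20, 10.11 and 10.12 in wild type (-0.23 ± 0.10, adjusted p = 0.156). Pik3cd, the catalytic subunit of leukocytes, was the 1 gene higher without overlap (0.24 ± 0.09, adjusted p = 0.129). After quantile normalization the median of the list was -0.04, beside 0.06 over all genes. Hk2, a hexokinase, read 10.36, 9.97 and 10.31, against 10.73, 10.73 and 10.54 in wild type (-0.45 ± 0.13, adjusted p = 0.0856, 0.0448 with the block). Its interaction was -0.70 ± 0.18 (adjusted p = 0.0134, at most 0.0433 with an array left out). Of the 20 genes next to Akt1 on chromosome 12, 2 were higher and 1 lower without overlap, and the median difference was 0.07.

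Germ cell genes showed little difference between exposed genotypes, and this is where the exposed and unexposed comparisons parted most. Of 30 genes of pachytene and later spermatocytes, 2 were higher and 0 lower without overlap in exposed testes. In the main fit and with the block 0 passed, and the median difference was -0.06. That median was -0.32 without exposed homozygous array 1, 0.19 without exposed homozygous array 3, 0.22 without exposed wild type array 1, and -0.15 with array set as a block. In unexposed testes 27 of the 30 were lower in homozygous mice, beside 14.2% of all genes, with a median difference of -2.42. The test of the difference between these differences passed for 24 of the 30, all positive, beside 8.23% of all genes, and for 23 to 25 of them with each of 12 arrays left out in turn. Without the 3 arrays with Spink8 above 7 it passed for 16. The mean level of the list was 8.33, 8.04 and 7.30 in exposed homozygous and 8.55, 7.71 and 7.64 in exposed wild type testes. It was 6.79, 7.04 and 7.50 in unexposed homozygous and 9.83, 9.42 and 9.59 in unexposed wild type testes. The means of both exposed groups thus lay between those of the unexposed groups, and the exposed arrays overlapped. In whole testis fewer cells of a type and less RNA per cell cannot be told apart.

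**Figure D4:**
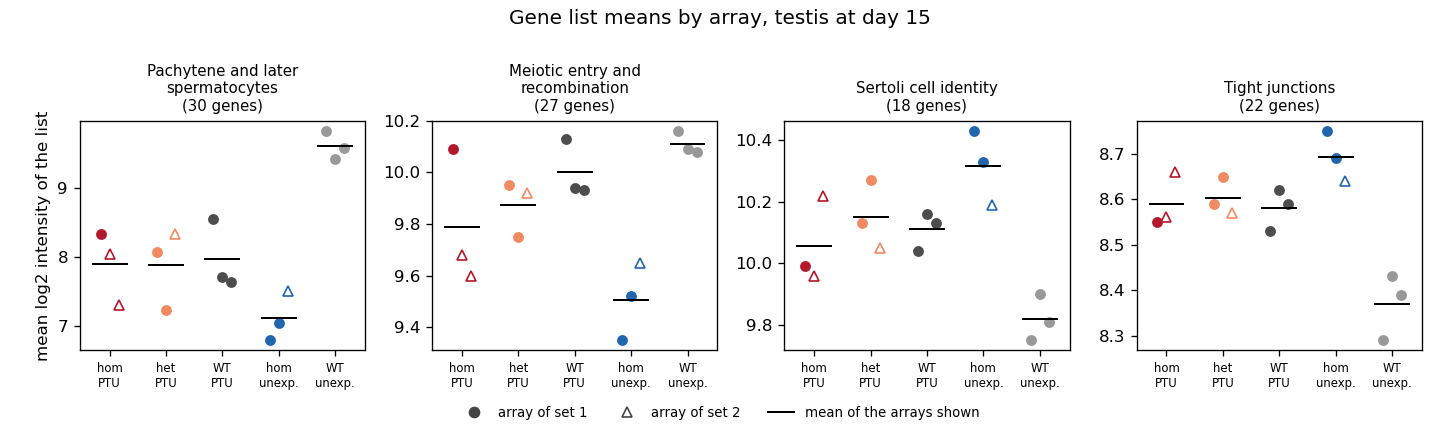
Mean log2 intensity of 4 gene lists on each day 15 array (vertical axis), by group (horizontal axis), with the group mean as a bar, circles for arrays of set 1 and triangles for arrays of set 2. The 3 exposed homozygous and 3 exposed wild type arrays overlap in each of the 4 panels, while the unexposed homozygous and wild type arrays do not.

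Adam3, a sperm surface protein first made in spermatocytes, read 6.76, 6.42 and 5.82 in exposed homozygous testes, against 7.67, 5.98 and 6.02 in exposed wild type testes. The groups overlapped (-0.22 ± 0.41, adjusted p = 0.748). In unexposed mice it read 5.53, 5.85 and 6.02 in homozygous and 10.68, 9.91 and 9.95 in wild type testes, and the interaction was 4.16 ± 0.58 (adjusted p = 0.000307). Ldhc, the lactate dehydrogenase of male germ cells, read 10.70, 10.12 and 8.14, against 10.89, 9.33 and 9.03 in wild type with PTU, a spread within each genotype far wider than the difference (-0.10 ± 0.70, adjusted p = 0.938). Without PTU it read 6.44, 7.03 and 8.78 in homozygous and 12.14 ± 0.18 (SD, n = 3) in wild type testes, with an interaction of 4.62 ± 0.99 in limma (adjusted p = 0.00521). Pgk2, the phosphoglycerate kinase of meiotic and later germ cells, gave an interaction of 2.59 ± 0.36 (adjusted p = 0.000278), and Slc26a8, a sperm anion transporter, one of 1.42 ± 0.29 (adjusted p = 0.00399). In exposed testes Pgk2 overlapped between genotypes (0.09 ± 0.25), as did Slc26a8 (-0.39 ± 0.21, adjusted p = 0.235). The smallest p of the interaction belonged to Abca14 (2.56 ± 0.21, adjusted p = 1.24e-05), a lipid transporter family gene, at 5.91, 5.96 and 5.57 in exposed homozygous testes, against 5.67, 5.47 and 5.25 in exposed wild type testes. Without PTU it read 5.21, 5.44 and 5.39 in homozygous and 7.73, 7.40 and 7.54 in wild type testes. Ccdc110 (2.30 ± 0.22) and Pxt1 (1.42 ± 0.14), both testis-expressed, followed at an adjusted p of 3.89e-05 each.

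Of 27 genes of meiotic entry and recombination, 25 had a negative difference in exposed testes, as had 8550 of all 16710 genes. The median was -0.20. Without overlap 4 were lower, near the 13.4% of all genes, and with the block 1 was lower (1.84% of all genes). These genes are bright, with a list mean of 9.79 log2 in exposed homozygous testes. The brightest of 5 brightness classes starts at 9.71. In that class the median difference was -0.15, and 26.5% of genes were lower and 2.3% higher without overlap. After quantile normalization the median of the list was -0.11, beside 0.06 over all genes and -0.06 in the brightest class. Dmc1, the meiotic strand exchange protein, read 10.87, 10.45 and 10.50 in exposed homozygous testes, against 11.05, 10.96 and 10.91 in exposed wild type testes (-0.36 ± 0.10, adjusted p = 0.0867, 0.0494 with the block). Its unexposed difference was -0.45 ± 0.10 (adjusted p = 0.00351). Sycp3, of the synaptonemal complex, overlapped between exposed genotypes (-0.18 ± 0.19), as did Ddx4, the germ cell helicase Vasa (-0.25 ± 0.14). The median of this list was 0.07 within array set 1, where homozygous array 1 stands alone. Among 23 spermatogonial genes, Nanos3, an RNA-binding protein of undifferentiated spermatogonia, read 7.16, 7.31 and 7.70, against 6.87, 6.96 and 7.11 in wild type (0.41 ± 0.12, 0.0487 with the block). Its unexposed difference was 0.47 ± 0.12 (adjusted p = 0.00805). Zbtb16, the stem cell factor PLZF, overlapped between exposed genotypes (0.19 ± 0.15, adjusted p = 0.414).

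**Figure D5:**
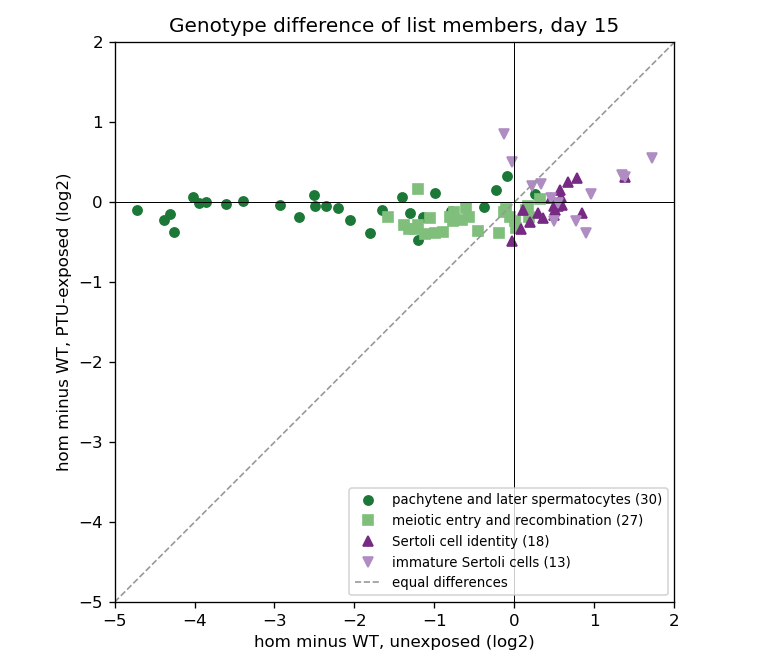
Log2 difference of homozygous minus wild type testes with PTU (vertical axis) against that without PTU (horizontal axis) for members of 4 gene lists at day 15. The dashed line marks equal differences. The pachytene list has a median of -0.06 with PTU and -2.42 without, and the Sertoli identity list a median of -0.07 with PTU and 0.50 without.

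Of 18 Sertoli cell identity genes 0 were higher and 3 lower without overlap in exposed testes (median -0.07), beside 11.9% and 13.4% of all genes. In unexposed testes 13 were higher (median 0.50), beside 14.6% of all genes. A negative interaction passed for 8.13% of all genes. The interaction passed for 8 of the 18, all negative, for 5 without exposed wild type array 3 or unexposed wild type array 1, for 6 to 11 with any other array left out, and for 2 without the arrays with Spink8 above 7. The 17 products of maturing Sertoli cells gave another picture, and 0 had exposed arrays without overlap (median -0.13). In unexposed homozygous testes 2 were higher and 4 lower (median 0.08), beside 14.6% and 14.2% of all genes. The interaction was positive for 1 and negative for 0, beside 8.23% and 8.13% of all genes. Kitl, the Kit ligand that Sertoli cells present to spermatogonia, read 9.94, 10.07 and 10.27 in exposed homozygous testes, against 10.16, 10.32 and 10.22 in exposed wild type testes (-0.14 ± 0.13, adjusted p = 0.502). Without PTU it read 10.52, 10.65 and 10.11 in homozygous and 9.58, 9.64 and 9.53 in wild type testes, with an interaction of -0.99 ± 0.18 (adjusted p = 0.00224, at most 0.00881 with an array left out). Amh, anti-Müllerian hormone, which falls as Sertoli cells mature, read 8.51, 8.38 and 9.42, against 8.07, 8.65 and 8.63 in wild type with PTU. It gave 9.34, 8.88 and 9.12 in unexposed homozygous and 7.63, 7.78 and 7.76 in unexposed wild type testes. Its difference was 0.32 ± 0.23 with PTU and 1.39 ± 0.23 without. The interaction of Amh was -1.07 ± 0.33 (adjusted p = 0.0357), but it did not pass without exposed homozygous array 1 or 2, exposed wild type array 2 or 3, unexposed homozygous array 1, or unexposed wild type array 1 or 3 (up to 0.0962). Thra, a thyroid hormone receptor high in immature Sertoli cells, read 10.05, 10.93 and 10.86 in exposed homozygous and 10.11, 10.28 and 10.43 in exposed wild type testes. Its interaction (-1.01 ± 0.30, adjusted p = 0.0315) did not pass without exposed homozygous array 1, exposed wild type array 2 or 3, unexposed homozygous array 1, or unexposed wild type array 1 or 3 (up to 0.0898). Among 13 genes listed as markers of immature Sertoli cells, Id2, an inhibitor of differentiation factors, had an interaction of -1.28 ± 0.28 (adjusted p = 0.00597). Dlk1, a Notch ligand-like protein on the same list, had one of -1.17 ± 0.30 (adjusted p = 0.0155). Whole testis does not show which cells the Dlk1 signal came from. With PTU, Dlk1 read 9.65, 10.56 and 10.38 in homozygous and 9.22, 9.94 and 9.79 in wild type testes. Its interaction p was at most 0.0473 with 1 array left out and 0.0541 without the 3 arrays with Spink8 above 7.

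Over all genes, the genotype difference depended on exposure for 2734 genes (16.4%), 1375 with a positive (8.23%) and 1359 with a negative interaction (8.13%), a split of 1629 and 941 after quantile normalization. Of these, 2266 passed in unexposed and 0 in exposed testes, and the difference was smaller in size with PTU for 2335. Their median size was 0.16 log2 with PTU and 0.56 without. In all, 4821 genes passed in unexposed testes (28.9%), 2447 higher (14.6%) and 2374 lower (14.2%) in homozygous mice. The count of interactions was 1563 without unexposed wild type array 1, 1692 without unexposed homozygous array 1, 1799 without exposed wild type array 2, 1819 without unexposed wild type array 3, and 1026 without the 3 arrays with Spink8 above 7. Interaction tests are given here for genes chosen after their values were seen: those that passed with each of 12 arrays left out in turn, and 5 Sertoli and junction genes that did not. Without the arrays with Spink8 above 7, the adjusted p was 0.0649 for Acp4, 0.0761 for Gpr21, 0.0985 for Gdap10, 0.111 for Hk2 and 0.0638 for Ldhc. Of the 750 genes that passed with the block in exposed testes, 107 also passed in unexposed testes, 88 of them with the same sign.

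Hsd3b6, which adult Leydig cells use in steroid synthesis, read 7.91, 5.47 and 5.96 in exposed homozygous testes, against 8.96, 6.57 and 7.17 in exposed wild type testes. Each homozygous array lay below the wild type array of the same number, with differences of -1.05, -1.09 and -1.21, yet the ranges overlapped (-1.12 ± 0.64, adjusted p = 0.274, 0.237 with the block). Over 18 alternative settings in limma the difference of Hsd3b6 ran from -1.85 to 0.34, and 2 of them passed (smallest adjusted p 0.00168). The 0.34 came from array set 1, where homozygous array 1 stands alone. Hsd17b3, which makes testosterone, read 9.63, 10.37 and 10.76, against 8.97, 10.05 and 9.67 in wild type (0.68 ± 0.29, adjusted p = 0.158, 0.12 with the block). Star, the cholesterol carrier of steroid synthesis, spread over 8.0 to 8.86 in exposed homozygous and 7.76 to 9.51 in exposed wild type testes. Klf9, a thyroid hormone target, read 9.10, 8.19 and 7.87, against 9.37, 8.72 and 8.99 in wild type, so only 1 homozygous array lay within the wild type range (-0.64 ± 0.24, adjusted p = 0.133, 0.106 with the block). Of 15 Leydig cell genes 0 had arrays without overlap, and of 15 thyroid hormone genes 3 were lower and 0 higher without overlap, beside 13.4% and 11.9% of all genes. With the block on all 18 arrays none of either list passed. With the block on the 6 arrays alone, 2 Leydig cell genes were higher and 1 lower, and 1 thyroid hormone gene was lower.

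At day 25, on another array type and with 2 exposed homozygous arrays, the exposed genotypes differed more widely. Of 16305 genes tested there, 5334 were higher (32.7%) and 4625 lower (28.4%) in exposed homozygous than in exposed wild type testes. The pachytene list had a median difference of -1.42 there with 28 of 29 genes lower, and the Sertoli identity list one of 0.53 with 11 of 17 higher and 2 lower. The ages were measured on different arrays and their difference was not tested.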

How the data were processed

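Total RNA of whole testis was hybridised to Affymetrix MoGene 1.0 st v1 arrays at day 15, 1 array per sample. The values deposited by the authors are log2 intensities made with RMA (version not given in the sources used here), per the submitters' processing notes. Per the design text, the authors left out 1 day 25 array for quality. Probe sets with 1 gene symbol in the platform annotation were kept, the one with the highest mean standing for its gene, and genes above the 25th percentile (5.56) on at least 2 arrays were tested. One model of 6 group means over 18 arrays was fitted with limma 3.58.1 in R 4.3.3, with Benjamini-Hochberg adjustment over all tested genes at 0.05. The interaction is the genotype difference with PTU minus that without. Arrays of the same sample number had correlated deviations from their group means (0.557, 0.141 and 0.423). Arrays of unlike number gave -0.532 to 0.377. The 0.377, of homozygous array 3 with wild type array 2, exceeded the 0.141 of the arrays numbered 2. No label says that the number pairs samples. It was used as a block, and the blocked values are printed where they change a call. Array precision is limited by the number of arrays. Named genes were Akt1 and Akt2, the 12 highest and 12 lowest differences without overlap at p under 0.01, the 6 smallest p each way, up to 4 genes of each of 32 lists, fixed markers and the 8 smallest interaction p; Mir23a and Mir27a were added after their values were seen. The members, lists and tests were chosen with earlier results of these data known. Alternatives were other filters, every probe set, quantile normalization, the 6 arrays alone, array weights, the replicate block, array set as a block, array set 1 alone, leaving out arrays with high Spink8, and leaving out each exposed array. Added after seeing the data were leaving out each unexposed array and the replicate block on 6 arrays or with array set. The fits were also run on simulated data with independent noise on each array. Those data held no array sets and no deviation shared by sample number, so they cannot show how the fits behave with either.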

Additional observations from a re-analysis of the deposited data

Results flagged for a closer look

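The genotype difference itself differed between exposed and unexposed testes for 2734 genes, by a test of the interaction in limma. Values are the log2 difference with PTU minus that without, and their adjusted p and behaviour with arrays left out stand with the genes above unless given here. Among germ cell and testis genes the values were 4.62 for Ldhc, 4.16 for Adam3, 2.59 for Pgk2, 2.56 for Abca14, 2.30 for Ccdc110, and 1.42 each for Slc26a8 and Pxt1. These genes were lower in homozygous than in wild type testes without PTU, and their differences lay nearer to 0 with it. Among Sertoli cell genes the values were -1.28 for Id2, -1.07 for Amh, -1.01 for Thra and -0.99 for Kitl. Dlk1, which was listed with them, gave -1.17, and whole testis does not show which cells its signal came from. Junction genes gave -0.96 for Ocln, -0.61 for Fyn, -0.59 for Gja1, -0.41 for Tjp1 and 0.67 for Cldn3. Survival and metabolic genes gave -0.71 for Bcl2l11, -0.68 for Foxo1, -0.70 for Hk2 and 0.58 for Bad.

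For genes with the smallest p between exposed genotypes the values were 0.65 for Acp4, 0.59 for Mir23a, -1.05 for Gpr21 and -0.98 for Gdap10, and their difference was near 0 without PTU. Mir23a had an adjusted p of 0.011, and 0.166 without the arrays with Spink8 above 7. Rpl13, a protein of the large ribosomal subunit, gave 0.57 (adjusted p = 0.0116, 0.133 without those arrays).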

How the results depend on the processing

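Of 13 recomputed counts that moved by more than 1.5 times, 5 concern genes that passed between exposed genotypes, where the main count was 0: quantile normalization gave 123 (117 higher and 6 lower), array weights 1187, the replicate block 750, that block on the 6 arrays 671, and leaving out 1 exposed array 0 to 3308, the highest without homozygous array 1; the other settings, with both the replicate block and array set as blocks among them, gave 0. The count of genes without overlap was 9327 in array set 1 and 5164 to 9345 with an array left out, where fewer arrays make separation easier by construction. The interaction count was 4904 with array weights, 3273 with the replicate block, 1026 without the arrays with Spink8 above 7 (which leaves 1 unexposed wild type array, assumed to vary like the others) and 1563 to 3130 with an array left out. Single differences between exposed genotypes turned sign in 31 recomputations. Within array set 1 the values were -0.01 for Akt2, 0.05 for Cldn11, Sycp3 and Ddx4, -0.23 for Thra, 0.07 for Id2 and Klf9, 0.20 for Adam3, 0.94 for Ldhc, -0.15 for Zbtb16, 0.34 for Hsd3b6, 0.02 for Cd68 and -0.10 for Car3. With array weights they were 0.02 for Adam3, 0.05 for Ldhc and 0.07 for Star. Gja1 was 0.03 with array set as a block, 0.05 without the Spink8 arrays and 0.09 with both blocks, where Kitl was 0.00 and Pgk2 -0.00. With an array left out Amh ran from -0.01 to 0.51, Ldhc from -0.62 to 0.65, Gja1 from -0.23 to 0.05, Pgk2 from -0.06 to 0.36, Adam3 from -0.51 to 0.33 and Cd68 from -0.15 to 0.01. The cause of these changes was not tested. Of the list medians 537 stayed within the spread between replicates and 39 moved. Dim genes near the filter at 5.56 have the least signal above background.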

Other observations

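Other gene groups differed little between exposed genotypes, and none of their members passed in the main fit. Of 23 matrix genes 3 were higher with the block (2.65% of all genes), among them Col5a1, a fibrillar collagen, which read 7.97, 8.04 and 8.20 in exposed homozygous testes, against 7.56, 7.90 and 7.76 in exposed wild type testes (0.33 ± 0.10, 0.043 with the block). Of 17 ribosomal protein genes 3 were higher with the block, among them Rpl13 at 12.11, 12.24 and 12.33, against 11.75, 11.94 and 11.93 in wild type (0.35 ± 0.10, 0.0466 with the block). The list medians were 0.12 for matrix and 0.19 for ribosomal protein genes, and -0.01 and 0.06 with array set as a block. In both genes every homozygous array lay above every wild type array. Of 19 round spermatid genes 6 were higher without overlap, beside 11.9% of all genes and 26.1% of the dimmest of 5 brightness classes. Spem1, a protein of sperm morphogenesis, read 5.67, 5.81 and 5.81 in exposed homozygous testes, against 5.14, 5.41 and 5.51 in wild type. Only 1 array of the other groups lay above the filter at 5.56, so Spem1 was tested through the group where it is high, and its values are given without a test.

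Among 21 macrophage genes 3 were higher and 2 lower without overlap, near the 11.9% and 13.4% of all genes. Cd68, a lysosomal protein of macrophages, overlapped between the genotypes (-0.07 ± 0.12). Wt1, a Sertoli cell transcription factor, read 10.96, 10.94 and 10.88 in exposed homozygous testes, against 11.04, 11.03 and 11.10 in exposed wild type testes (-0.13 ± 0.08, adjusted p = 0.323). Car3, a carbonic anhydrase of fat and muscle, read 5.27, 6.01 and 5.74, against 5.13, 5.48 and 5.48 in wild type, and its arrays overlapped. Of 20 genes of the piRNA pathway and 13 general germ cell genes, 0 had exposed arrays without overlap, and the interaction was positive and past the threshold for 11 and 7 of them, beside 8.23% of all genes. The 11 became 7 without exposed wild type array 3, unexposed homozygous array 1 or unexposed wild type array 1. The 7 became 3 when any 1 of these was left out and 4 without exposed wild type array 2. Without the 3 arrays with Spink8 above 7 the counts were 4 and 2.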
